A study of Mus musculus with 8 samples.

Results

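The cytokines interleukin-6 (Il6), leukemia inhibitory factor (Lif) and oncostatin M (Osm), the receptor chains Il6ra, Il6st, Lifr and Osmr, the transcription factor Stat3 and its feedback inhibitor Socs3 were followed in mouse leukemia macrophages. These 9 genes were taken by symbol from a table of 53647 genes, all 9 were present, and 8 of them passed the filter on low counts, which 13412 genes of the table passed. PolyA RNA of C57BL/6 cells sorted after 12 h of culture had been sequenced in 8 libraries, 4 from macrophages kept alone (Mac) and 4 from macrophages kept with mesenchymal stromal cells (E-Mac). Mesenchymal stromal cells (MSC) are fibroblast-like cells found in bone marrow and other tissues. The question is which RNAs of the macrophages differ after contact with MSC. The labels leave out the leukemia model, the gate of the sort, the age of the mice and the source of the MSC. They also do not tell whether each library had an animal or a culture of its own, so the p-values describe the scatter of these 8 libraries, which may be technical.

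Of the IL-6 family, IL-6, LIF and oncostatin M bind a ligand-specific chain and signal through the shared chain gp130, which Il6st encodes. IL-6 uses the alpha chain IL-6R (Il6ra), LIF uses the LIF receptor (Lifr), and mouse oncostatin M uses mainly the oncostatin M receptor (Osmr). Janus kinases bound to these chains phosphorylate STAT3, STAT3 switches on Socs3 among other genes, and the SOCS3 protein binds gp130 and shuts the signal off. RNA levels do not show how much of these proteins is phosphorylated. In macrophages, STAT3 also carries the signal of the anti-inflammatory cytokine IL-10.

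Total counts were 11646025 to 15556935 for the Mac libraries and 13377046 to 15740846 for the E-Mac libraries. Levels are given as CPM, counts per 1000000 counts of the library's tested genes after TMM scaling, as mean ± SD over 4 libraries, and values listed by library follow the order 1 to 4. Differences are log2 fold changes, E-Mac over Mac, ± standard error, from edgeR's quasi-likelihood test, with p-values adjusted by Benjamini-Hochberg over all 13412 genes tested and calls at an adjusted p under 0.05. The macrophage marker Adgre1 went from 379 ± 41.6 CPM in Mac to 765 ± 40.8 in E-Mac, and Csf1r was at 984 ± 74.0 and 1023 ± 114. The 16 macrophage markers summed to 14390 ± 533.9 CPM in Mac and to 11600 ± 1512 in E-Mac, with 7 higher and 4 lower. That fall lay in Lyz2, without which the sum of the other 15 rose from 3183 ± 214.6 to 5454 ± 622.6 CPM (exact permutation p = 0.0286). Among those 15, 7 were called higher, and C1qa, Cd163 and Vcam1 lower. Lyz2 was chosen after seeing the data, which this p does not allow for. Stromal markers (20 genes) summed to 23.3 to 25.1 CPM in Mac, to 89.9 and 70.5 in E-Mac 1 and 3, and to 448 and 499.6 in E-Mac 2 and 4. Of the 11 stromal markers tested, 9 were higher, 0 lower and 2 did not pass, where 29.5% of all genes tested were higher and 28.8% lower. Col1a1 went from 1.13 ± 0.250 CPM in Mac to 80.3 ± 70.6 in E-Mac. Col3a1 had 0 counts in Mac and stood at 10.6 ± 9.89 CPM in E-Mac. Pdgfrb, at 1.83 ± 0.718 and 3.09 ± 1.05 CPM, did not pass. The 9 other stromal markers were too low to test. Among them, Lum, Dcn and Lepr had means of at most 0.140 CPM. From Mac to E-Mac, the means of Postn (0.196 to 3.11 CPM), Prrx1 (0.073 to 2.31) and Col6a1 (0.062 to 1.11) were higher. So were those of Col6a2 (0.088 to 0.908) and Pdgfra (0 to 0.363), while that of Cxcl12 was lower (1.35 to 0.208). Endothelial markers (8 genes) rose from 90.1 ± 5.45 to 228 ± 33.4 CPM, with 3 higher and 1 (Vwf) lower of 5 tested. Most of that rise lay in Pecam1 (82.0 ± 6.05 to 166.6 ± 36.9 CPM) and Kdr (2.68 ± 0.139 to 55.7 ± 8.24). Cdh5, also called higher, went from 0.196 ± 0.156 to 2.43 ± 0.872 CPM (log2 fold change 3.56 ± 0.53, edgeR adjusted p = 6.73e-05). Egfl7 did not pass. Emcn, Tek and Esam were too low to test, with means of at most 0.1855 CPM. Dendritic cell markers (8 genes) rose from 235 ± 8.63 to 562 ± 44.3. Their rise lay in Bst2, without which the sum of the other 7 fell from 157 ± 7.29 to 89.1 ± 23.0 CPM (exact permutation p = 0.0286). Bst2 too was chosen after seeing the data. Of the 8 genes 2 were called higher and 3 (Flt3, Clec9a and Cd209a) lower. T and NK cell markers (11 genes, Cd3e at 0 throughout) fell from 22.3 ± 4.28 to 5.33 ± 0.969 and B cell markers (8 genes) from 238 ± 13.8 to 159 ± 35.9, with 4 B cell genes higher and 2 lower. The monocyte and granulocyte sums, given with the receptors, fell too. For each of the 8 sums the exact two-sided permutation test gave p = 0.0286 (adjusted 0.0286), the smallest that 4 against 4 libraries allow. Without any 1 of the Mac libraries it was 0.0571 for the macrophage and 0.171 for the stromal sum. In such bulk samples fewer cells of a type and less RNA per cell cannot be told apart.

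The bases just upstream of the RefSeq starts of the genes that changed are shown, with those of Il6. These windows were searched for the sites bound by STAT3 and by 2 other factors active in macrophages. They are RefSeq windows on GRCm38.p6, read 5′ to 3′ on the gene's strand, with a motif match in capitals and all other bases in lower case. Lifr has 2 annotated starts there, and gene-level counts do not tell transcripts from them apart. The windows of Lifr, Socs3 and Osmr (not shown) lie wholly within the gene spans given below, which come from GENCODE. For these genes the bases before the outermost GENCODE start were therefore not searched.
Lifr, first start, chr15:7129472-7129571, plus strand: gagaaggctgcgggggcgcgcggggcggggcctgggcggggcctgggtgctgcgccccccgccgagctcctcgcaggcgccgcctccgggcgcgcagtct
Lifr, second start, chr15:7140442-7140541, plus strand: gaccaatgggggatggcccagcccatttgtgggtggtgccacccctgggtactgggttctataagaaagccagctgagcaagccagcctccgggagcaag
Il6st, chr13:112463970-112464069, plus strand: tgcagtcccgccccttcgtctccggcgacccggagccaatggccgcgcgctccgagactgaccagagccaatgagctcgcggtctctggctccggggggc
Il6ra, chr3:89913197-89913296, minus strand: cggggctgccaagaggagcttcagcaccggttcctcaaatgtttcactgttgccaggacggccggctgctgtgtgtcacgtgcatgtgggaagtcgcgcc
Socs3, chr11:117969367-117969530, minus strand: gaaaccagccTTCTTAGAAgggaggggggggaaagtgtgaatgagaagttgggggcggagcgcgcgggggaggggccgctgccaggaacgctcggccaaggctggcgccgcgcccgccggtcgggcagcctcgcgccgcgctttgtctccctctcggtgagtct
Il6, chr5:30013014-30013113, plus strand: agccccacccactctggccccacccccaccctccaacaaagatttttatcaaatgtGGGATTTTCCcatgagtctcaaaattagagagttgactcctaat

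Windows of 300 bases, 250 before and 50 after the start, were found for 8 of the 9 genes. On both strands, the STAT motif TTCNNNGAA occurred once, as TTCTTAGAA at 154 to 146 bases before the RefSeq start of Socs3, and in 8.30% of all 32851 promoter windows. Its stricter form TTCCNGGAA, which is contained in TTCNNNGAA, was in none of the windows of these genes and in 1.15% of all windows. The NF-kB motif, GGG, any 2 bases, then TTTCC, occurred once, as GGGATTTTCC before Il6, and in 1.63% of all windows. The PU.1 motif GAGGAAGT was in none of theirs and in 3.20% of all. The first Lifr window held 81.3% G and C and the second 53.3%, against a median of 52.7% over all windows and 69.7% at the highest decile. A match is a description of the letters, and no binding was measured.

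The receptor chains Lifr, Il6st and Il6ra fell, Osmr was too low to test, and neither the ligands nor Stat3 passed. Of the 8 genes tested, Lifr, Il6st and Il6ra were lower in E-Mac, Socs3 was higher, and Osm, Lif, Il6 and Stat3 did not pass. These are 4 of 8 called (50.0%), where 58.3% of all genes tested were called, 28.8% lower and 29.5% higher, so the share called among them is near the background. For the same 4 the groups did not overlap, as for 53.9% of all genes tested. Their median log2 fold change was -0.045, against -0.00305 over all genes tested. With total counts as the only scaling that background median moved by more, to -0.147, and the calls over all genes from 3954 higher and 3860 lower to 2996 and 5018, while the 4 calls kept their direction.

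**Figure D1:**
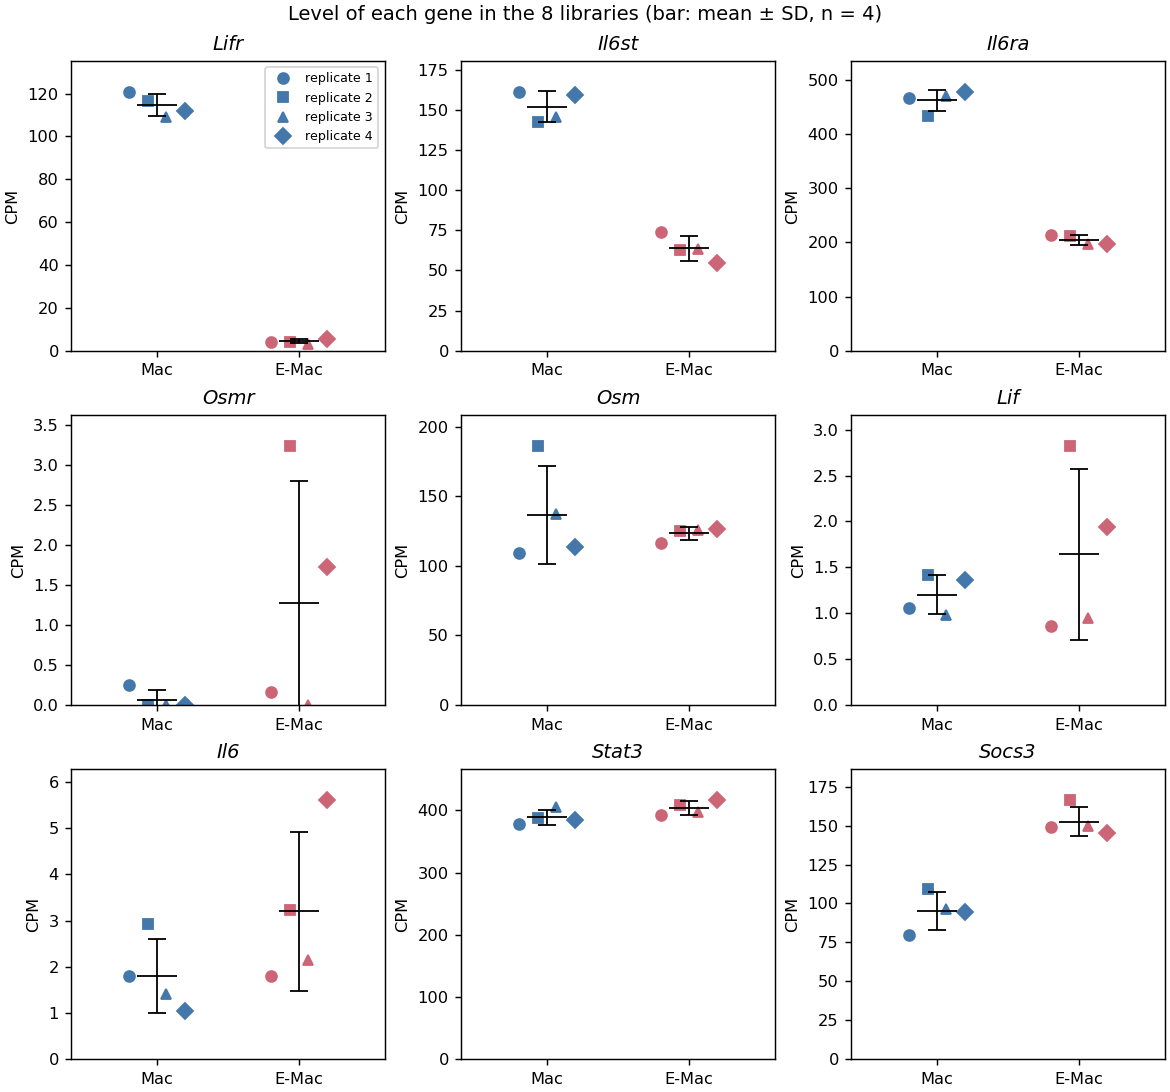
Level in CPM (y axis, from 0) of each of the 9 genes in the 4 Mac (blue) and 4 E-Mac (red) libraries, with the symbol giving the replicate number and the black bar the mean ± SD. For Lifr, Il6st and Il6ra all E-Mac libraries lie below all Mac libraries, for Socs3 all lie above, and for the other 5 genes the groups overlap.

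Lifr, the LIF-binding chain, fell the most of the 9 genes. It stood at 121, 117, 109 and 112 CPM in Mac and at 4.13, 4.33, 3.37 and 5.61 CPM in E-Mac. Every E-Mac library was far below every Mac library, and the groups did not overlap, which held with E-Mac lower for 27.2% of all genes tested. The mean level in E-Mac (4.36 ± 0.930 CPM) was 26.3-fold lower than in Mac (115 ± 5.17), leaving 3.80% of it (log2 fold change -4.72 ± 0.12, edgeR adjusted p = 5.78e-12, n = 4 and 4). Behind these values were 1402 to 1943 reads per library in Mac and 50 to 78 in E-Mac, so the transcript was still counted in each E-Mac library. Among 9035 tested genes with at least 10 CPM in the higher group, only 10 had a lower log2 fold change than Lifr, and among all genes tested 32 did. When E-Mac 2 and 4, which had the highest stromal sums, were left out, the value was -4.93. On mm10, Lifr lies on chromosome 15, 7090614 to 7197489, plus strand, protein coding (ENSMUSG00000054263).

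Il6st, the signalling chain gp130 shared by IL-6, LIF and oncostatin M, fell by less. Its levels were 161, 142, 145.5 and 159 CPM in Mac, against 73.7, 62.9, 63.6 and 54.7 CPM in E-Mac. The groups did not overlap, and the mean fell from 152 ± 9.48 to 63.7 ± 7.80 CPM, 2.39-fold lower (log2 fold change -1.25 ± 0.09, edgeR adjusted p = 6.12e-08). Il6ra, which gives cells their response to IL-6, was the most abundant receptor chain per kilobase in both groups. Its libraries held 467, 434, 471 and 477.5 CPM in Mac and only 214, 211, 197.5 and 196 CPM in E-Mac. Again the groups did not overlap, and the mean fell from 463 ± 19.4 to 205 ± 9.31 CPM, 2.26-fold lower (log2 fold change -1.18 ± 0.07, edgeR adjusted p = 7.36e-09). Il6st lies on chromosome 13, 112464070 to 112510086, plus strand (ENSMUSG00000021756), and Il6ra on chromosome 3, 89864059 to 89913196, minus strand (ENSMUSG00000027947), both protein coding. The antisense gene Gm42809 shares 2.80% of the exon bases of Il6ra and had 5 counts over all libraries.

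Most granulocyte and monocyte markers moved with these falls. The sum of 20 granulocyte markers dropped from 41940 ± 1751 CPM (39550 to 43550) to 18470 ± 3654 (15080 to 22810). Of the 20, 13 were lower and 3 (Cxcr2, Mmp9 and Lcp1) higher, where 28.8% of all genes tested were lower and 29.5% higher. Among the 13, the calprotectin gene S100a8 fell from 5481 ± 424 to 2970 ± 699 CPM and the granule peptide gene Camp from 1978 ± 59.4 to 264 ± 63.1. Among the 3, Lcp1 rose from 1997 ± 50.9 to 2813 ± 256 CPM. The sum of 10 monocyte markers dropped from 9382 ± 353.7 CPM (9107 to 9893) to 5856 ± 297.4 (5533 to 6183), with 8 lower and Ly6c2 higher. Of the 8, Fn1 fell most in CPM, from 3443 ± 250 in Mac to 774 ± 173 in E-Mac. F13a1 (1441 to 628 CPM) and Ccr2 (1242 to 638) followed. Others that fell included Ace, at 297 CPM in Mac against 13.4, Nr4a1, at 315 against 46.8, Spn, at 283 against 109.5, and Treml4, at 58.3 against 23.5. The part of these markers in the fall of the 3 receptor chains was not tested.

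To compare the chains with each other, reads per kilobase of exon were set in ratio within each library, which removes the library scaling. The ratio of Lifr to Il6st was 0.772, 0.845, 0.772 and 0.724 in the Mac libraries, against 0.0577, 0.0710, 0.0546 and 0.106 in the E-Mac libraries. Lifr thus fell further than gp130 in every E-Mac library (log2 difference of the ratio -3.48, exact two-sided permutation p = 0.0286, adjusted over 3 ratios 0.0429, n = 4 and 4). The ratio of Il6ra to Il6st was 3.92 ± 0.181 in Mac and 4.16 ± 0.382 in E-Mac, with overlapping groups (log2 difference 0.085, exact permutation p = 0.286, adjusted 0.286), and the sign of that difference turned without E-Mac 2 and 4 (-0.0198). Whether Il6ra and Il6st fell to the same degree is not shown by this p, since it only misses the threshold.

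Osmr, the chain that mouse oncostatin M mainly uses, was too low to test. It had 4, 0, 0 and 0 counts in the Mac libraries and 2, 47, 0 and 24 counts in those of E-Mac. Nearly all its reads came from E-Mac 2 and 4, at 3.23 and 1.72 CPM, the libraries whose stromal markers summed to 448 and 499.6 CPM. In E-Mac 1 and 3 it stood at 0.156 and 0 CPM, a level no higher than the 0.248 CPM of Mac 1. The part of the stromal reads in this was not tested. Osmr lies 215.6 kb from Lifr on chromosome 15 (6813577 to 6874969, minus strand, protein coding).

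**Figure D2:**
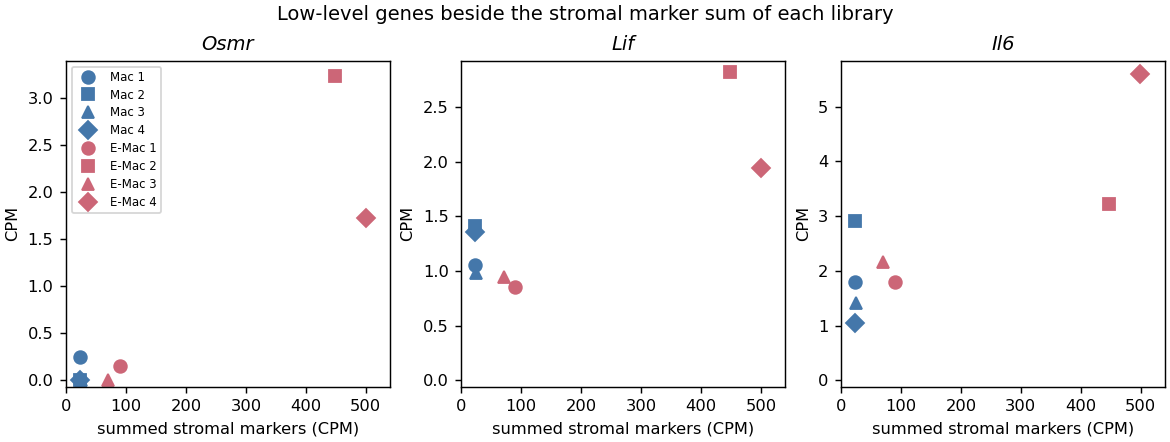
CPM of Osmr, Lif and Il6 (y axes) against the summed CPM of 20 stromal markers (x axis) in each of the 8 libraries, blue for Mac and red for E-Mac. E-Mac 2 and 4, at stromal sums of 448 and 499.6 CPM, carry the highest values of each of the 3 genes, and E-Mac 1 and 3 lie within or close to the Mac range.

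Among the ligands Osm was the only one at a high level. Its 4 Mac libraries held 109, 186, 137 and 114 CPM, its 4 E-Mac libraries 116, 125, 126 and 127. The E-Mac libraries lay close together inside the range of the Mac libraries, in which Mac 2 was the highest. The means, 136.5 ± 35.3 and 123.5 ± 4.83 CPM, did not differ beyond this spread (log2 fold change -0.14 ± 0.14, edgeR adjusted p = 0.421), and without Mac 2 the sign turned (0.057, adjusted p = 0.626, 0.0931 to 0.668 over all alternatives). Osm lies on chromosome 11, 4236420 to 4241026, 16.5 kb from Lif at 4257557 to 4272514, both on the plus strand and protein coding.

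Lif and Il6 had few reads. Those of Lif were 17, 17, 16 and 22 counts in Mac, and 11, 41, 14 and 27 counts in E-Mac. The 2 highest libraries were again E-Mac 2 and 4, at 2.82 and 1.94 CPM, while E-Mac 1 and 3, at 0.857 and 0.943 CPM, lay below all Mac libraries (0.983 to 1.42). The difference did not pass (log2 fold change 0.46 ± 0.39, edgeR adjusted p = 0.332), and without E-Mac 2 and 4 its sign turned (-0.40, adjusted p = 0.498, 0.157 to 0.870 over all alternatives). Il6 had 29, 35, 23 and 17 counts in the Mac libraries, then 23, 47, 32 and 78 in the E-Mac libraries. E-Mac 4 was the highest library at 5.61 CPM, and E-Mac 1, at 1.79, lay inside the Mac range of 1.05 to 2.91. The log2 fold change of Il6 was 0.86 ± 0.39 (edgeR adjusted p = 0.0752). Leaving out E-Mac 4 gave 0.45, leaving out both E-Mac 2 and 4 gave 0.18, and over all alternatives the adjusted p ran from 0.0277 to 0.717. It passed when Mac 2 was left out (1.19, 0.0296), when E-Mac 1 was (1.06, 0.0294) and with no filter (0.89, 0.0277). The part of the stromal reads in Lif and Il6 was not tested. Il6 lies on chromosome 5, 30013114 to 30019981, plus strand, protein coding.

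Stat3, the transcription factor that these receptors activate, was abundant and did not pass the test. Mac held 378, 387, 406 and 385 CPM of it and E-Mac 392, 408, 398 and 416. The groups overlapped and the means, 389 ± 12.1 and 404 ± 10.8 CPM, were 0.05 ± 0.06 apart on the log2 scale (edgeR adjusted p = 0.486), with the sign turning to -0.04 under upper-quartile scaling and to -0.09 when only total counts were used. Stat3 lies on chromosome 11, 100885098 to 100939540, minus strand, protein coding, and shares 0.80% of its exon bases with Stat5a on the opposite strand.

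Socs3, the inhibitor that STAT3 induces and that acts on gp130, was the only one of the 9 genes that rose. From 79.6, 109.6, 96.6 and 94.6 CPM in the Mac libraries it went to 149, 166, 149.7 and 145 CPM in those of E-Mac. All E-Mac libraries lay above all Mac libraries, as for 26.7% of all genes tested. The mean rose from 95.1 ± 12.3 to 153 ± 9.37 CPM, 1.61-fold (log2 fold change 0.68 ± 0.09, edgeR adjusted p = 2.37e-05), and was 0.66 higher on the log2 scale without E-Mac 2 and 4. Relative to Stat3, reads of Socs3 per kilobase went from 0.805 ± 0.0978 in Mac to 1.25 ± 0.0795 in E-Mac, with no overlap (log2 difference 0.64, exact two-sided permutation p = 0.0286, adjusted over 3 ratios 0.0429). Socs3 lies on chromosome 11, 117966079 to 117970047, minus strand, protein coding.

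Levels of different genes were compared per kilobase of annotated exon. In Mac the order began with Osm, Il6ra, Stat3 and Socs3, at 60.1 ± 15.5, 53.5 ± 2.24, 40.8 ± 1.26 and 32.9 ± 4.24 CPM per kilobase. Of these neighbours, Osm and Il6ra did not differ beyond their spread (48.0 to 81.9 and 50.2 to 55.3), and the ranges of the others lay apart. Il6st and Lifr followed at 13.7 ± 0.854 and 10.6 ± 0.479 CPM per kilobase, close to each other but with ranges apart. Il6 (0.739 ± 0.333), Lif (0.276 ± 0.0494) and Osmr (0.00513 ± 0.0103) came last.

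In E-Mac the order was Osm (54.4 ± 2.13), Socs3 (52.8 ± 3.24), Stat3 (42.4 ± 1.14) and Il6ra (23.7 ± 1.08), then Il6st (5.74 ± 0.703), Il6 (1.32 ± 0.708), Lifr (0.405 ± 0.0863), Lif (0.377 ± 0.213) and Osmr (0.106 ± 0.125 CPM per kilobase). Osm and Socs3 overlapped there, and so did Lifr with Lif and Lif with Osmr. Lifr, which in Mac stood beside Il6st, had moved to the low-level genes. With the longest transcript as the length Stat3 came first in both groups, at 64.4 and 66.8 CPM per kilobase, and the order from Il6st downwards stayed as given in both groups.

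**Figure D3:**
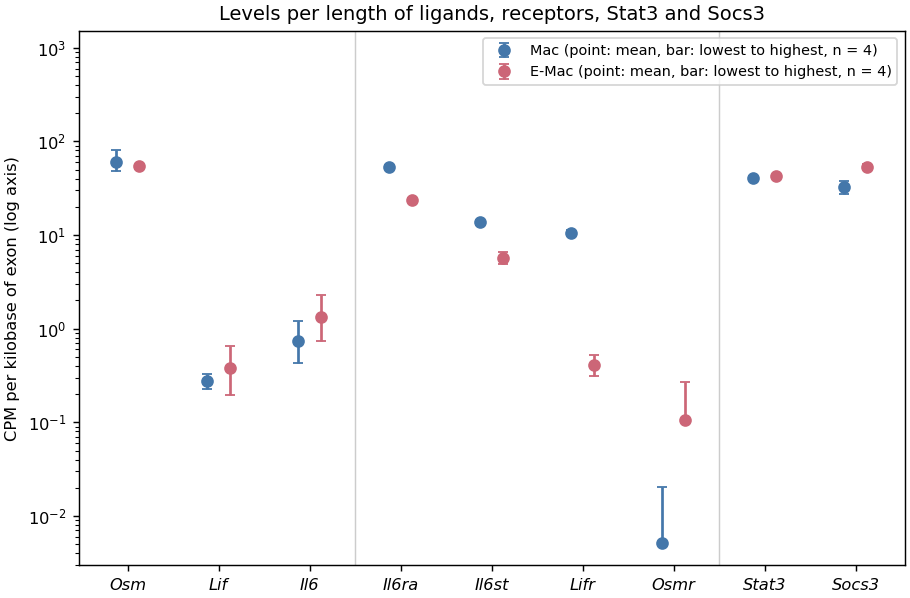
Mean level in CPM per kilobase of exon (log axis) of the ligands (left), receptor chains (middle), and Stat3 and Socs3 (right) in Mac (blue) and E-Mac (red), with bars from the lowest to the highest of 4 libraries, drawn upwards only where the lowest is 0. Lifr drops from 10.6 to 0.405 CPM per kilobase, whereas Stat3 is at 40.8 and 42.4.

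For each tested gene the 3 genes most alike in log2 (CPM + 0.1) over the 8 libraries were picked from 8675 genes with a mean of at least 10 CPM, as a description over libraries that share the same 2 groups. Those of Lifr were Gm7694, Eno3 and Spn (Pearson r = 0.9986, 0.9984 and 0.9983). Those of Il6st were Cdc25b, Aspm and Pxylp1 (0.9963, 0.9961 and 0.9959), and those of Il6ra were Abca9, C3 and Ppfia4 (0.9986, 0.9985 and 0.9983). Socs3 was most like Derl1, Spic and Nfkbie (0.9956, 0.9926 and 0.9911). Osm, whose highest library was Mac 2, was most like Nfkbia, Tnfaip3 and Plk3 (0.9766, 0.9745 and 0.9703). Stat3 was nearest to Nabp2, Gosr1 and Mpp5 (0.9522, 0.9452 and 0.9437), Lif to Tmub2, Wac and Maml1 (0.9608, 0.9515 and 0.9297), and Il6 to Angel2, Reps2 and Preb (0.9648, 0.9612 and 0.9560).

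Of 4 other receptor genes of the family 3 were tested, 2 fell and 1 did not pass (66.7% called, median -1.96), where 58.3% of all genes were called and 28.8% were lower. Il31ra, the IL-31 receptor chain that pairs with the oncostatin M receptor, fell from 11.4 ± 0.552 to 0.587 ± 0.153 CPM (-4.26 ± 0.20, edgeR adjusted p = 1.24e-09). Il27ra, the IL-27 chain that pairs with gp130, fell from 2.53 ± 0.488 to 0.640 ± 0.237 CPM (-1.96 ± 0.33, adjusted p = 0.000196). Il11ra1, the IL-11 receptor, was 7.16 ± 0.604 and 7.17 ± 0.880 CPM (-0.00079 ± 0.14, adjusted p = 0.997), with a sign that turned under several alternatives (-0.15 to 0.15). Cntfr had no counts.

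Of 11 other ligand genes, which include subunits shared with the IL-12 family, 4 were tested, 3 rose and 1 did not pass (75% called, median 0.44), where 58.3% of all genes were called and 29.5% were higher. Il12a, a subunit of IL-12 and IL-35, rose from 0.953 ± 0.635 to 4.34 ± 1.10 CPM (2.13 ± 0.40, edgeR adjusted p = 0.000521). The cytokine gene Clcf1, a ligand of the CNTF receptor, rose from 11.3 ± 1.20 to 15.5 ± 1.28 CPM (0.46 ± 0.12, adjusted p = 0.00425), and Ebi3, the partner subunit of IL-27, from 34.1 ± 1.49 to 45.4 ± 5.23 (0.42 ± 0.09, adjusted p = 0.00161). Il27 did not pass (9.75 ± 1.31 and 8.97 ± 1.001 CPM, -0.11 ± 0.14, adjusted p = 0.508). Il11, the ligand of Il11ra1, and Il31, the ligand of Il31ra, had 0 counts in all 8 libraries.

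**Figure D4:**
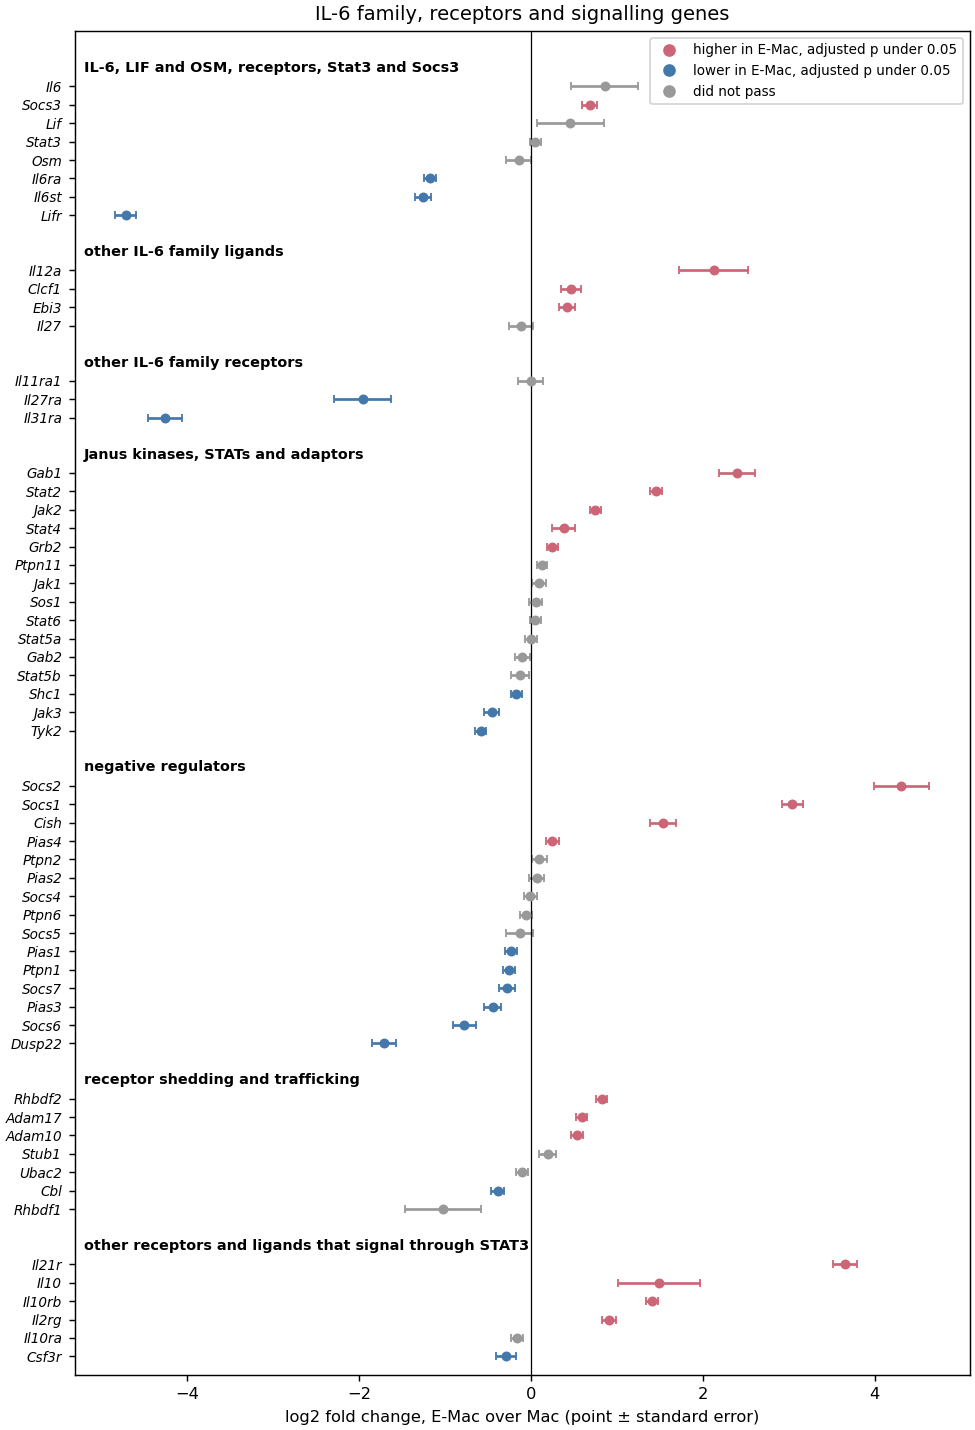
Log2 fold change, E-Mac over Mac (x axis), ± standard error of each tested gene of 7 gene groups, coloured by the edgeR call at an adjusted p under 0.05. Lifr (-4.72) and Il31ra (-4.26) lie farthest to the left and Socs2 (4.31), Il21r (3.66) and Socs1 (3.04) farthest to the right, while Stat3 lies at 0.05.

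The kinases and STAT genes moved both ways. Of 15 Janus kinase, STAT and adaptor genes, all tested, 5 rose and 3 fell, with a median log2 fold change of 0.058 and 53.3% called against 58.3% of all genes. Jak1, the kinase that gp130 signalling depends on most, was 449 ± 7.28 and 480 ± 52.4 CPM and did not pass (0.10 ± 0.08, adjusted p = 0.327, with the sign turned to -0.05 with total counts only and to -0.04 without E-Mac 2 and 4). Jak2 rose from 167 ± 2.32 to 281 ± 16.6 CPM (0.75 ± 0.06, adjusted p = 4.11e-07), and Tyk2 fell from 188 ± 5.42 to 125 ± 7.59 (-0.58 ± 0.07, adjusted p = 5.33e-06). Jak3, the kinase of common gamma chain receptors, fell as well (-0.46 ± 0.09, adjusted p = 0.000727). Stat2, a transcription factor of type I interferon signalling, rose from 218.5 ± 7.13 to 600.1 ± 39.4 CPM (1.46 ± 0.07, adjusted p = 1.68e-09). Without E-Mac 2 and 4, 4 genes of this group rose and 5 fell.

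Other SOCS family genes moved both ways: Socs1, Socs2 and Cish rose, Socs6 and Socs7 fell, and Socs4 and Socs5 did not pass. Of 16 negative regulators 15 were tested, of which 4 (Socs1, Socs2, Cish and Pias4) rose and 6 fell (66.7% called, near the 58.3% of all genes, median -0.062). Socs1, which blocks Janus kinases directly, rose 8.24-fold, from 9.34 ± 0.549 to 77.0 ± 11.8 CPM (3.04 ± 0.12, edgeR adjusted p = 2.24e-10). Socs2, best known from growth hormone signalling, was at 2.17, 1.998, 2.21 and 2.28 CPM in Mac and reached 25.1, 47.2, 34.2 and 66.6 CPM in E-Mac (4.31 ± 0.32, adjusted p = 1.36e-06). Its 2 highest libraries were E-Mac 4 and 2, and without both the value was 3.77. Cish, best known as a feedback inhibitor of STAT5 signalling, went from 6.88 ± 1.02 to 20.1 ± 3.52 CPM (1.54 ± 0.15, adjusted p = 1.87e-06). The phosphatase gene Dusp22 (-1.71 ± 0.14, adjusted p = 2.65e-07), Socs6 (-0.77 ± 0.13, adjusted p = 0.000211) and Socs7 (-0.27 ± 0.09, adjusted p = 0.0215) fell, and so did Pias3, whose product inhibits STAT3 (-0.44 ± 0.10, adjusted p = 0.00184). The phosphatase gene Ptpn6 was 577 ± 14.8 and 553 ± 36.7 CPM and did not pass (-0.062 ± 0.069, adjusted p = 0.468), but was called lower with total counts only (-0.21, adjusted p = 0.0174) and when E-Mac 2 and 4 were left out (-0.13, adjusted p = 0.0358), in a range of 0.0174 to 0.851 over all alternatives.

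Of 7 shedding and trafficking genes 3 rose and 1 fell, and the 57.1% called are near the 58.3% of all genes. Adam17, the main sheddase of the IL-6 receptor under stimulation, went from 145 ± 3.25 to 218 ± 12.9 CPM (0.59 ± 0.06, edgeR adjusted p = 4.39e-06). Rhbdf2, which brings ADAM17 to the cell surface, went from 109.8 ± 4.94 to 194 ± 12.1 (0.82 ± 0.07, adjusted p = 2.79e-07), and Adam10 from 190.1 ± 2.58 to 275.5 ± 23.8 (0.54 ± 0.07, adjusted p = 2.75e-05). The ubiquitin ligase gene Cbl fell (-0.39 ± 0.08, adjusted p = 0.000918). With total counts only or upper-quartile factors 3 fell, and without E-Mac 4 alone 2 fell. Shedding itself was not measured.

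Of 12 receptor and ligand genes of other routes into STAT3 6 were tested, 4 rose, 1 fell and 1 did not pass (83.3% called, median 1.16, with 29.5% of all genes called higher and 28.8% lower). The IL-10 receptor chain Il10rb rose from 56.4 ± 1.28 to 149.6 ± 9.69 CPM (1.41 ± 0.07, edgeR adjusted p = 1.44e-09) and the IL-21 receptor Il21r from 8.02 ± 0.794 to 101 ± 18.3 (3.66 ± 0.14, adjusted p = 2.24e-10). The ligand-binding chain Il10ra was 234 ± 10.2 and 209 ± 12.6 CPM and did not pass (-0.16 ± 0.07, adjusted p = 0.0503), although it passed as lower under 7 of 17 alternatives (0.000893 to 0.197). Il10 rose from a low level, 1.002 ± 0.731 to 2.74 ± 0.734 CPM, with overlapping groups (1.49 ± 0.48, adjusted p = 0.0165). Csf3r, the G-CSF receptor and also a granulocyte marker, was lower with overlapping groups, at 1051 ± 50.4 and 860 ± 160 CPM (-0.29 ± 0.11, adjusted p = 0.0422). That call was lost without any 1 of Mac 1, Mac 2, Mac 3, Mac 4, E-Mac 1 and E-Mac 3 (0.0625 to 0.126), whereas without E-Mac 2 and 4 the value was -0.54.

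Genes known as STAT3 targets were mostly called, in both directions. Of 30, all tested, 20 rose, 8 fell and 2 did not pass (93.3% called, against 58.3% of all genes, median 0.81). Of all genes tested, 29.5% were called higher and 28.8% lower. The list was chosen with earlier results of these data known, so its share called is only a description. Without E-Mac 2 and 4, 18 rose and 7 fell. Hif1a, the oxygen-sensing transcription factor, rose from 126 ± 3.63 to 879 ± 41.0 CPM (2.80 ± 0.07, edgeR adjusted p = 5.67e-12). Il1rn, the interleukin-1 antagonist, rose from 65.3 ± 1.82 to 388 ± 33.5 (2.57 ± 0.08, adjusted p = 2.28e-11). Bcl3, Pim1 and Junb are immediate targets in many cells. Bcl3 (1.32 ± 0.08) and Pim1 (0.88 ± 0.16) rose, and Junb (-0.81 ± 0.15) fell with Fos (-1.96 ± 0.15). The anti-apoptotic genes Bcl2l1 (1.81 ± 0.15) and Mcl1 (0.37 ± 0.08) rose.

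Of the acute-phase genes in that list, Saa3 rose from 2.27 ± 0.354 to 52.7 ± 15.5 CPM (4.53 ± 0.24, adjusted p = 1.78e-08). Lrg1 fell from 181 ± 3.06 to 37.3 ± 9.58 (-2.28 ± 0.14, edgeR adjusted p = 8.69e-08), Lcn2 from 2216 ± 50.8 to 662 ± 165 (-1.74 ± 0.14) and Hp from 1074 ± 26.7 to 541 ± 52.0 (-0.99 ± 0.08, adjusted p = 2.19e-07). Lcn2 is also among the 20 granulocyte markers, 13 of which fell. Arid5a (0.011 ± 0.064) and Nfil3 (-0.28 ± 0.16) did not pass. Hif1a, whose product also acts on some of these targets, rose in the same libraries, and its part was not tested.

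**Figure D5:**
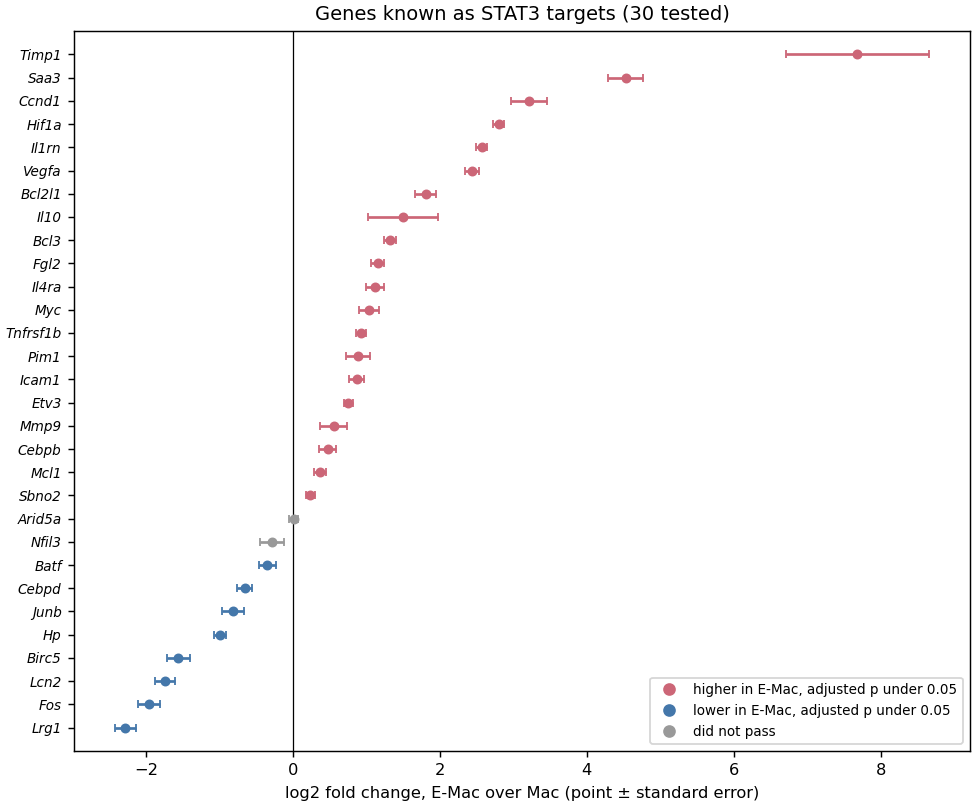
Log2 fold change, E-Mac over Mac (x axis), ± standard error of the 30 genes known as STAT3 targets, coloured by the edgeR call at an adjusted p under 0.05. The 20 that rose and the 8 that fell span from -2.28 (Lrg1) to 7.68 (Timp1, at 0.0519 CPM in Mac).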

How the data were processed

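The authors deposited raw counts of reads for each gene symbol and library. Per the submitters' processing notes, bcl2fastq, HISAT2, featureCounts from Subread, and DESeq2 were used with the mm10 genome. Tool versions, the annotation release and the settings for strand and multi-mapping reads were not given in the sources used here. From 53673 names, 26 that had turned into dates were left out (0.134 to 0.160% of counts). All 37 mitochondrial genes had 0 counts.

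Counts were filtered with filterByExpr (minimum count 10, minimum total 15), scaled by TMM (factors 0.931 to 1.07) and fitted by group with edgeR 4.0.16 (robust quasi-likelihood) in R 4.3.3. The standard error is the fold change divided by the square root of F. The alternatives used other factors (RLE, upper-quartile, total counts only), no filter or at least 10 CPM in 4 libraries, DESeq2 1.42.0, voom of limma 3.58.1, the replicate number as a block, and each library left out. Leaving out both E-Mac 2 and 4, Lyz2 or Bst2 was chosen after seeing the data. In simulated data of 13216 genes, 67, 67 and 66 genes were changed 1.5-, 2- and 4-fold, and edgeR recovered 52.2, 86.6 and 98.5% of them. Far fewer genes changed there than the 58.3% called in the real data, so these shares need not hold for it. Within groups, pairs of libraries differed beyond sampling noise (chi-square of 4.85 to 33.9 per degree of freedom). Coordinates and exon lengths are from GENCODE M21.

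One gene of the kinase and adaptor list is not reported here and was left out of its counts. The genes and lists were chosen with earlier results of these data known. Named were all 9 genes, the 2 smallest adjusted p in each direction of each pathway list, and a short list of genes whatever their values (such as Jak1, Il11ra1 and Csf3r). Named after their values were seen were Cish, Pias3, Pias4, Adam10, Bcl2l1, Mcl1, Bcl3, Pim1, Junb, Fos, Saa3, Lcn2, Arid5a, Nfil3, Timp1, Il11, Il31, Cntfr, Ace, Nr4a1, Spn, Treml4, Ly6c2, Fn1, F13a1, Ccr2, Lum, Dcn, Lepr, Postn, Prrx1, Col6a1, Col6a2, Pdgfra, Cxcl12, Cd3e, Lyz2, C1qa, Cd163, Vcam1, Bst2, Flt3, Clec9a, Cd209a, Pecam1, Kdr, Cdh5, Egfl7, Vwf, Emcn, Tek, Esam, Cxcr2, Mmp9, Lcp1, Socs4, Socs5, Socs7, Stat4 and Shc1. The 3 ratios, the stricter STAT, NF-kB and PU.1 motifs and the windows without a STAT motif were also added then.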

Additional observations from a re-analysis of the deposited data

Results flagged for a closer look

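In 6 of 106 groups of 4 libraries checked, 1 library stood farther from the other 3 than Dixon's test allows, which chance gives for about 1 group in 20. Osmr was 0.248 CPM in Mac 1, where all its 4 counts in Mac lay, and 0 in the others. Osm in E-Mac 1 was 116 CPM, the lowest of its group, against 125 to 127. Il10ra was 249 CPM in Mac 2 and Lrg1 was 176 CPM in Mac 1. The stromal marker sum of Mac 3 was 25.1 CPM, and the T and NK cell marker sum of E-Mac 1 was 6.78 CPM.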

How the results depend on the processing

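The falls of Lifr (-4.93 to -4.60), Il6st (-1.40 to -1.14) and Il6ra (-1.32 to -1.15) and the rise of Socs3 (0.541 to 0.773) passed under all 17 alternatives. Of the 8 genes, 2 were called higher instead of 1 with no filter, and 1 to 2 when single libraries were left out, 2 without Mac 2 and without E-Mac 1, the second being Il6. The sign turned for Osm without Mac 2 (0.0565, and -0.237 to 0.0565 over single libraries left out), for Lif without E-Mac 2 and 4 (-0.397), for Stat3 with upper-quartile factors (-0.0435) and total counts only (-0.0907), for Csf1r in the same way (-0.0423 and -0.0872), for Jak1 with total counts only (-0.0485) and without E-Mac 2 and 4 (-0.0400), and for the ratio of Il6ra to Il6st without E-Mac 2 and 4 (-0.0198). Il11ra1 turned with RLE factors (0.00100), no filter (0.0283), DESeq2 (0.000109), without E-Mac 2 and 4 (0.148) and without 4 of the single libraries (0.0536, 0.00912, 0.0503 and 0.0696, in a range of -0.0499 to 0.0696). The higher calls of the kinases and adaptors went to 3 under both upper-quartile and total-count scaling. Other moves were in lower calls: the other receptors to 1 with at least 10 CPM in 4 libraries, where fewer genes were tested, the kinases and adaptors to 5 with total counts only and without E-Mac 2 and 4, and the shedding genes to 3 with upper-quartile factors and total counts only, to 2 with limma-voom and without E-Mac 2 and 4, and to 1 to 2 with single libraries left out. The lower calls of the other STAT3 receptors and ligands went to 2 with upper-quartile factors, total counts only, at least 10 CPM, DESeq2 and limma-voom, to 0 with no filter and with the replicate block, and to 0 to 1 with single libraries left out. Among the pathway genes that block ended the calls of Csf3r (-0.31, adjusted p = 0.0574), Stat4 (0.37, 0.0573) and Shc1 (-0.17, 0.0583), called Nfil3 lower (-0.27, 0.0342) and changed no other call. The same-numbered libraries did not deviate together (r of -0.142 to 0.0668, against -0.131 to 0.144 for differently numbered ones). Such values cannot decide whether the numbers pair cultures, which the labels do not tell. The macrophage sum's difference turned without Lyz2 (2271 CPM) and that of the dendritic cell sum without Bst2 (-68.2 CPM). The sums' differences with single libraries left out were -3262 to -2116 CPM for macrophage and 178.9 to 322 CPM for stromal markers. Except where fewer genes or libraries were used, the cause of these moves was not tested. Counts per E-Mac library of 50 to 78 for Lifr, 0 to 47 for Osmr, 11 to 41 for Lif and 23 to 78 for Il6 limit their precision there.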
